A study of Mus musculus with 2 samples.

Results

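The 32 genes described here code for enzymes, carriers and regulators of fatty acid oxidation in mitochondria and peroxisomes. They were chosen by symbol, as 32 of the 32285 mouse genes in the count tables, and each symbol matched exactly 1 gene. By role they comprise 2 regulators, 4 genes of acyl-CoA synthesis and carnitine-dependent entry into mitochondria, 10 genes of mitochondrial beta-oxidation, 6 peroxisomal genes, 3 electron transfer genes, 3 medium-chain acyl-CoA synthetases, and 4 cytochrome P450 family 4 and carboxylesterase genes.

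The proximal tubule reabsorbs most of the filtered salt, glucose and amino acids and draws most of its ATP from fatty acids. A long-chain fatty acid is first joined to coenzyme A, passes the mitochondrial membranes as a carnitine ester, and is shortened in repeated cycles of dehydrogenation, hydration, a second dehydrogenation and thiolysis, while peroxisomes take very long-chain, branched and dicarboxylic acids. PPARalpha with its coactivator PGC-1alpha drives transcription of many of these genes, and their mRNAs are known to be low in tubules after injury.

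The study asked how loss of the prolyl hydroxylase domain (PHD) oxygen sensors from endothelium after ischemia changes kidney repair. Single cells from postischemic kidney of 1 Cre- mouse and 1 PHDTiEC mouse were profiled. Both were male, 8 to 10 weeks old, carried floxed *Phd1*, *Phd2* and *Phd3* alleles, underwent unilateral renal artery clamping for 25 min, received 4 intraperitoneal doses of tamoxifen at 3 mg per mouse starting the day after surgery, and gave kidney at day 14. PHDTiEC additionally carried Cdh5(PAC)-CreERT2, a tamoxifen-activated Cre driven by an endothelial promoter, so deletion was directed to endothelial cells and not to tubules. The Cre- littermate had no Cre and also received tamoxifen. With 1 library of 1 mouse per genotype no test between genotypes was possible, the genotype cannot be told apart from the mouse or the library, and no uninjured kidney was among the samples.

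The Cre- library held 136004367 UMIs (unique molecular identifiers, each standing for 1 captured mRNA molecule) and the PHDTiEC library 146758812. After filtering, 8548 and 9309 cells remained, with medians of 7500 and 7898 UMIs per cell. Cells were clustered without the 32 genes and without the related lists of fatty acid, peroxisome, regulator and ketone body genes used below. The lists of proximal tubule transport, respiratory chain and glycolysis genes were not left out. Clusters were named from markers. Proximal tubule-like cells (PT-like) comprised 419 cells in Cre- and 586 in PHDTiEC, and injured PT-like cells 297 and 272. The kidney injury marker *Havcr1* (KIM-1) stood at 268 and 142 counts per 1000000 UMIs of the class (CPM) in PT-like cells and at 884 and 725 CPM in injured PT-like cells, while the phosphate transporter *Slc34a1* stood at 2322 and 2042 CPM against 150 and 230 CPM. PT-like is therefore not free of injury marker: 57.3% and 48.3% of its cells held a *Havcr1* UMI, compared with 86.5% and 84.6% of injured PT-like cells and 2.70% and 1.06% of neutrophil-like cells, which should lack it and are shallower. In endothelial-like cells (EC-like, 313 and 440 cells) the targeted genes were not lower throughout in the library labelled PHDTiEC: *Egln1* (PHD2) read 67.5 CPM in Cre- and 202 CPM in PHDTiEC, *Egln3* (PHD3) 26 and 161 CPM, and *Egln2* (PHD1) 44.3 and 39.4 CPM. Tags at the 3′ end do not show whether a floxed exon is gone, so these values check neither label. Intervals below are exact 95% intervals that cover counting error only, not differences between mice.

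Upstream sequences are shown for the genes on which the tubular results turn. These are the genes that had at least 40% of their UMIs in PT-like cells and were lower in injured PT-like cells (*Acsm2*, *Acsm1*, *Ehhadh*, *Acaa1b*, *Cyp4b1* and *Ppara*; *Cyp4a10*, *Cyp4a14* and *Ces1f* also belong here but had no window), and *Acadl*, with higher levels there in both libraries. Each line gives the 250 bases before a RefSeq transcript start on GRCm38.p6, 5′ to 3′ on the gene's strand. RefSeq start windows matched 26 of the 32 genes, with 28 windows in all. Capitals mark letters matching either AGGTCA exactly, on either strand, or GTTAAT and ATTAAC with any 1 base between, with up to 2 mismatches. The first is a nuclear receptor recognition element and the second is the binding element of hepatocyte nuclear factor 1. The start labelled second for *Acsm2* and those of *Acsm1* and *Ppara* lie inside the gene bodies of the GENCODE annotation.
Acsm2, first start, chr7:119554090-119554339 (+): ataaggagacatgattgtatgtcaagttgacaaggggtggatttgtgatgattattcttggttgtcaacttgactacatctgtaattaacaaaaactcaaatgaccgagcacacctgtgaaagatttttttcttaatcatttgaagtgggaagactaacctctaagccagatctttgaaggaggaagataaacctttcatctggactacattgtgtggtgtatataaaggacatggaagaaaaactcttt
Acsm2, second start, chr7:119561458-119561707 (+): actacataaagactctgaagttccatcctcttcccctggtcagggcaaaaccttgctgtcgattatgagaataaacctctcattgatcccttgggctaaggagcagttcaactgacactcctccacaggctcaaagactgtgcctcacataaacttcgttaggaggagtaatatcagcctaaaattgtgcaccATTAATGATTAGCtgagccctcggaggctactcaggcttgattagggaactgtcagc
Acsm1, chr7:119617562-119617811 (+): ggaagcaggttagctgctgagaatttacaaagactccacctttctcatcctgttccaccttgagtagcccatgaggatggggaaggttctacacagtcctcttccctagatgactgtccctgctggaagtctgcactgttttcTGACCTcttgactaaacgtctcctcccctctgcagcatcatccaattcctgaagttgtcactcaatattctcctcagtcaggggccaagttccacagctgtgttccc
Ehhadh, chr16:21787835-21788084 (-): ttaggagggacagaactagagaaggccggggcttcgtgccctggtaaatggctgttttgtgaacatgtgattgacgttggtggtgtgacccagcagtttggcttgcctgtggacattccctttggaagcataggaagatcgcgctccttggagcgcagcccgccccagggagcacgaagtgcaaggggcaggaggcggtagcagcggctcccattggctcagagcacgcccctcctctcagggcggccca
Acaa1b, chr9:119157094-119157343 (-): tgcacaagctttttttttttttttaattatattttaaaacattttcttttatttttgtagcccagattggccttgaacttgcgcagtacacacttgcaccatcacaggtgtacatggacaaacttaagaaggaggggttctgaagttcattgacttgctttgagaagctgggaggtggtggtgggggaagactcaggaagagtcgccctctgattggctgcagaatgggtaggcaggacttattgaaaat
Cyp4b1, chr4:115647722-115647971 (-): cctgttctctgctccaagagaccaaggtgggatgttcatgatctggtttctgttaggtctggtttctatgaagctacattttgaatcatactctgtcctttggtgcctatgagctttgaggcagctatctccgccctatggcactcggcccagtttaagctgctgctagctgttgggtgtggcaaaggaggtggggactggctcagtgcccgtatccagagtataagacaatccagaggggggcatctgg
Ppara, chr15:85735526-85735775 (+): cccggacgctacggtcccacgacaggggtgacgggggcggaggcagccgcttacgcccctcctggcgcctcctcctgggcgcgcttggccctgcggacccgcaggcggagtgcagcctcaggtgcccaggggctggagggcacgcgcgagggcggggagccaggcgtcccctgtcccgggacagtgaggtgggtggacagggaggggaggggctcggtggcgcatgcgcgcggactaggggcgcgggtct
Acadl, chr1:66863310-66863559 (-): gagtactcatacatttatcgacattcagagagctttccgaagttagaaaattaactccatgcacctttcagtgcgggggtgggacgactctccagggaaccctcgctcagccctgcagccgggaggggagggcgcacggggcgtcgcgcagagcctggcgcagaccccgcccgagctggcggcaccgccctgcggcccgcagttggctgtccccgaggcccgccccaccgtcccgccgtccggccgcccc

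The direct repeat of AGGTCA with any 1 base between the copies, the element type that PPARalpha binds with its partner RXR, had no exact match and no match with 1 mismatch, on either strand, in any of the 28 windows of 300 bases (250 before and 50 after the start), compared with 0.0396% and 0.554% of all 32851 windows. With up to 2 mismatches it matched the windows of *Etfa* and *Slc25a20*, 7.14% of the 28 against 3.86% of all. The single element AGGTCA occurred in 4 windows (*Acadm*, *Acsm1*, *Acadvl*, *Cpt1a*), 14.3% against 16.3%, and each match to the repeat contains a near match to it. The paired element of GTTAAT and ATTAAC with up to 2 mismatches occurred in 1 window, the second of *Acsm2*, 3.57% against 1.36%. These are matches of letters, not shown binding sites, and an absent match says only that these letters are not in the window.

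Transcripts of the 32 genes made up a larger share of all UMIs in PT-like cells than in any other tubular class, and a share in injured PT-like cells like that of the other segments. They took 0.486% (0.482 to 0.490) of PT-like UMIs in Cre- and 0.456% (0.452 to 0.459) in PHDTiEC. In injured PT-like cells the share was 0.225% (0.222 to 0.228) and 0.217% (0.214 to 0.220). A PT-like cluster of low depth (medians of 1541 and 1915 UMIs per cell), kept apart from the comparisons, held 0.338% and 0.304%. The remaining tubular classes lay between 0.174% and 0.237% in Cre- and between 0.171% and 0.221% in PHDTiEC, with thick ascending limb-like (TAL-like) cells at 0.200% and 0.198%. Stromal and endothelial classes held 0.100% to 0.160% and 0.0873% to 0.148%, and immune classes other than proliferating ones 0.0693% to 0.0915% and 0.0634% to 0.0951%. Barcodes with under 100 UMIs, which mostly carry free RNA, held 0.190% and 0.176%. A large piece of the PT-like share was *Acsm2* alone, with 39.8% and 37.2% of the UMIs of the 32 genes there and 9.54% and 10.5% in injured PT-like cells. Without *Acsm2* the shares were 0.293% and 0.286% in PT-like cells and 0.204% and 0.194% in injured PT-like cells, compared with 0.199% and 0.197% in TAL-like cells.

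The 32 genes did not share a cell type. PT-like cells had the highest CPM for 13 genes in Cre- and 15 in PHDTiEC among 26 named classes, and 23 of the 32 genes peaked in the same class in both libraries. Of the 32 genes, 9 had at least 40% of their UMIs in those cells in both libraries: *Ppara*, *Acaa1b*, *Ehhadh*, *Acsm1*, *Acsm2*, *Cyp4a10*, *Cyp4a14*, *Cyp4b1* and *Ces1f*. The level of 40% was chosen after the values were seen. Intercalated-like cells, which secrete acid or base and are rich in mitochondria, had the highest level of 6 and 4 genes, among them *Ppargc1a* (174 and 190 CPM), *Hadhb* (191 and 154 CPM) and *Etfa* (260 and 221 CPM). Distal convoluted tubule-like (DCT-like) cells had the highest *Cpt1a* (170 and 164 CPM) and *Hsd17b4* (95.7 and 111 CPM), and cells of the thin limb and inner medulla the highest *Acadl* (257 and 295 CPM).
Some peaks lay outside the tubule. *Cyp4b1*, a cytochrome P450 that hydroxylates fatty acids, reached 300 and 334 CPM in the cortical-like endothelial cluster (cREC-like), where 40 of 127 and 79 of 214 cells held a UMI, compared with 101 and 64.6 CPM in PT-like cells. In the medullary-like endothelial cluster (mREC-like) it was at 24.8 and 33.6 CPM. *Acsl1*, a long-chain acyl-CoA synthetase, peaked in neutrophil-like cells at 138 and 169 CPM, and *Slc25a20*, the carnitine-acylcarnitine carrier, in dendritic-like cells at 70.3 and 84.3 CPM. *Eci2*, which handles unsaturated acids, peaked in podocyte-like cells, a class of 20 cells in Cre-, at 97.1 and 124 CPM. The counting interval of the top class lay apart from that of the next class in both libraries for *Acsl1*, *Cpt1a* and *Cyp4b1*. It did so in 1 library for *Acadl*, *Slc25a20* and *Etfa*, and in neither for *Ppargc1a*, *Hadhb*, *Hsd17b4* and *Eci2*.

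**Figure D1:**
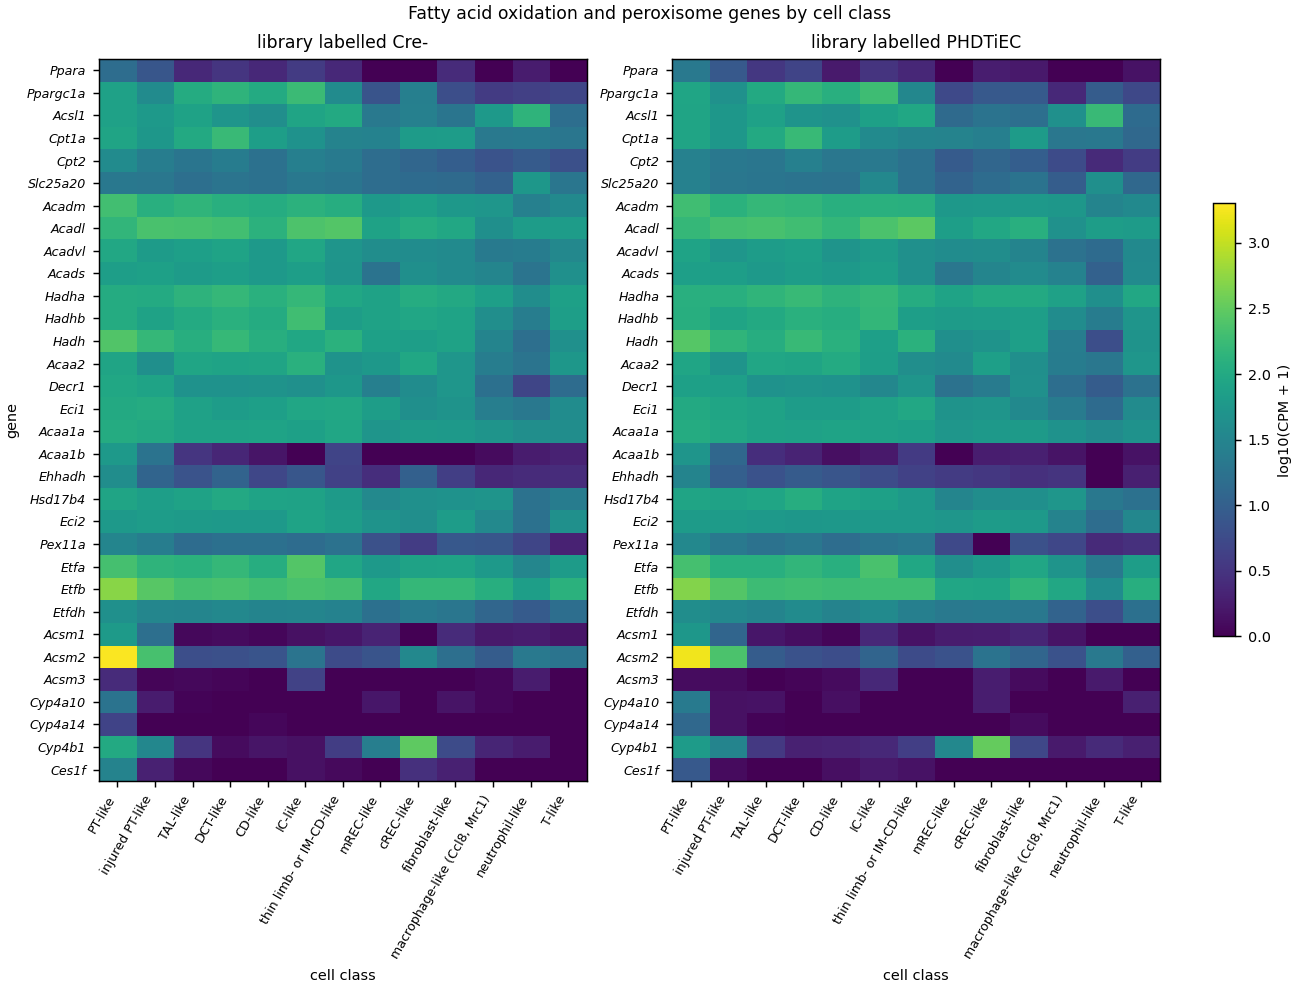
Heat map of log10(CPM + 1) for the 32 genes (vertical, ordered by role) in 13 cell classes (horizontal) of the Cre- and PHDTiEC libraries, 1 library each. Acsm2 is bright in PT-like cells at 1932 and 1695 CPM and near the dark end in TAL-like cells at 5.29 and 8.14 CPM, whereas the genes of mitochondrial beta-oxidation have color in every tubular class.

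Within each library, injured PT-like cells had lower levels of most of the 32 genes than PT-like cells. The median log2 ratio was -0.65 in Cre- and -0.62 in PHDTiEC, while that of all genes was 0.26 and 0.27. In all, 28 of 32 and 30 of 31 genes with at least 10 UMIs lay below 0. Lower by more than 2-fold were 9 of the 30 genes with at least 50 UMIs in Cre- and 9 of 31 in PHDTiEC, compared with 6.31% and 5.94% of all such genes, and 0 were higher by more than 2-fold, compared with 13.1% and 13.7% of all genes. The interval lay below 0 for 26 and 25 genes, compared with 16.9% and 15.9% of all genes, above 0 for 2 and 1, compared with 41.9% and 43.9%, and held 0 for 4 and 5. These cells differed in mitochondrially encoded RNA too, with 12.5% and 9.94% of UMIs in PT-like and 4.37% and 3.55% in injured PT-like cells. Without those transcripts the medians were -0.78 and -0.72 for the 32 genes and 0.13 and 0.18 for all genes.

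The genes concentrated in PT-like cells differed most between the classes, which their choice by PT-like share itself favors. Of the 9 named above, the 8 with at least 50 UMIs in Cre- (all but *Cyp4a14*) had a median log2 ratio of -1.99 (range -4.82 to -1.11), and all 9 in PHDTiEC had a median of -2.30 (-5.76 to -1.13). Of the other 23, the 22 with at least 50 UMIs (all but *Acsm3*) had medians of -0.43 and -0.48, with ranges of -1.01 to 0.61 and -0.93 to 0.40. Across 31 genes the share of UMIs in PT-like cells of Cre- and the log2 ratio in PHDTiEC had a Spearman rho of -0.79, and the share in PHDTiEC and the ratio in Cre- one of -0.61. Both correlations are across genes, which are not independent replicates, and are descriptive. The share and the ratio are also linked by how they were computed. PT-like UMIs enter the share's numerator and the ratio's denominator, and the share's total includes injured PT-like UMIs. A high share therefore favors a low ratio, and taking them from different libraries does not remove this link. Neither the contrast of the 9 with the other 23 nor the correlations can tell a further relation apart from that link.

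**Figure D2:**
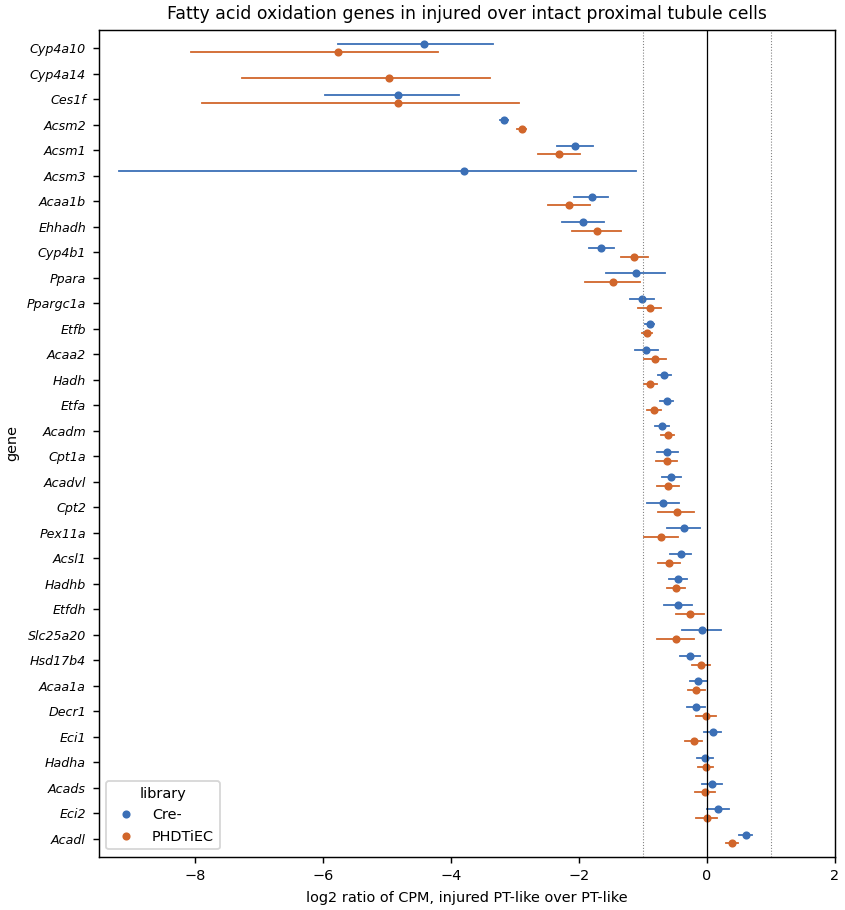
Log2 ratio of CPM in injured PT-like over PT-like cells (horizontal) for each gene (vertical), with exact 95% counting intervals, in the Cre- and PHDTiEC libraries; dotted lines mark a 2-fold difference, and Cyp4a14 in Cre- (0 UMIs in injured cells) and Acsm3 in PHDTiEC (under 10 UMIs) are not drawn. Most points lie left of 0, with Cyp4a10, Cyp4a14, Ces1f, Acsm3 and Acsm2 at -2.89 or lower where drawn, and Acadl lies right of 0 in both libraries.

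Both regulators were lower in injured PT-like cells. *Ppara*, the nuclear receptor that switches on fatty acid oxidation, was at 14.2 CPM in PT-like and 6.62 CPM in injured PT-like cells of Cre- (log2 ratio -1.11, interval -1.57 to -0.66), and at 20.3 and 7.37 CPM in PHDTiEC (-1.46, -1.90 to -1.05). *Ppargc1a*, the coactivator PGC-1alpha of mitochondrial biogenesis, was at 76.1 and 37.8 CPM in Cre- (log2 ratio -1.01) and at 86.2 and 46.4 CPM in PHDTiEC (-0.89). *Ppara* counts were low in all other tubular classes, while *Ppargc1a* was highest in intercalated-like cells.

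The genes for activation and carnitine entry differed less, with medians of -0.52 and -0.54. *Cpt1a*, the rate-limiting carnitine palmitoyltransferase of the outer membrane, read 84.4 CPM in PT-like and 54.9 CPM in injured PT-like cells of Cre-, and 83.4 and 54.1 CPM in PHDTiEC (log2 ratio -0.62 in both). *Cpt2*, its partner on the inner membrane, had log2 ratios of -0.68 and -0.47 and *Acsl1* of -0.41 and -0.59. For *Slc25a20* the libraries were less alike: 20.2 and 19.1 CPM in Cre- (-0.08, -0.39 to 0.22) against 26.8 and 19.1 CPM in PHDTiEC (-0.49). Thus 0 of these 4 genes passed 2-fold in either library.

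Mitochondrial beta-oxidation was mixed, with 7 of 10 genes below 0 in Cre- and 9 of 10 in PHDTiEC and 0 past 2-fold. Among the acyl-CoA dehydrogenases of the first step, medium-chain *Acadm* was at 197 and 121 CPM in Cre- and 193 and 126 CPM in PHDTiEC (log2 ratios -0.70 and -0.61), and very long-chain *Acadvl* had ratios of -0.55 and -0.60. Short-chain *Acads* had ratios of 0.08 and -0.03. *Acadl*, the long-chain enzyme, was higher in injured PT-like cells: 147 and 224 CPM in Cre- (log2 ratio 0.61, 0.51 to 0.70) and 157 and 206 CPM in PHDTiEC (0.40, 0.30 to 0.49). It was the only one of the 32 genes whose interval lay above 0 in both libraries. The trifunctional protein's alpha subunit *Hadha* was nearly level at 107 and 104 CPM in Cre- and 120 and 118 CPM in PHDTiEC. Its beta subunit *Hadhb*, transcribed from the neighboring gene in the opposite direction, had ratios of -0.44 and -0.48. *Hadh*, which oxidizes hydroxyacyl-CoA of short and medium chains, was at 251 and 158 CPM in Cre- and 265 and 144 CPM in PHDTiEC (log2 ratios -0.66 and -0.88). *Acaa2*, the thiolase of the last step, had ratios of -0.94 and -0.81. *Decr1* and *Eci1*, which let unsaturated acids enter the cycle, had ratios of -0.17 and -0.01, and of 0.09 and -0.21.

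The peroxisomal genes fell into a pair with large differences and 4 with smaller ones. *Ehhadh*, the bifunctional enzyme for dicarboxylic acids, was at 40.4 CPM in PT-like and 10.6 CPM in injured PT-like cells of Cre- (log2 ratio -1.93, -2.27 to -1.60) and at 29.7 and 9.05 CPM in PHDTiEC (-1.71, -2.10 to -1.34). *Acaa1b*, a peroxisomal thiolase, was at 59.2 and 17 CPM in Cre- (-1.80, -2.07 to -1.54) and at 51.0 and 11.5 CPM in PHDTiEC (-2.15, -2.48 to -1.83). Its paralog *Acaa1a* on the same chromosome had ratios of only -0.14 and -0.17, at 106 and 96.5 CPM in Cre- and 105 and 93.4 CPM in PHDTiEC. These paralogs share 38.2% of the 90-base words near the 3′ end of *Acaa1b* and 18.4% of those of *Acaa1a*, so reads could be split between them and both values are uncertain. *Hsd17b4*, the bifunctional enzyme for very long-chain and branched acids, had ratios of -0.26 and -0.09, *Eci2* of 0.17 and -0.00, and *Pex11a*, a peroxin that promotes peroxisome division, of -0.36 and -0.71.

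All 3 electron transfer genes, whose products carry electrons from the acyl-CoA dehydrogenases to ubiquinone, were lower in both libraries. *Etfb* was at 520 CPM in PT-like and 280 CPM in injured PT-like cells of Cre- and at 490 and 256 CPM in PHDTiEC (log2 ratios -0.89 and -0.93). *Etfa* had ratios of -0.63 and -0.83, and *Etfdh*, the ubiquinone oxidoreductase, of -0.46 and -0.27. *Etfb* shares 49.6% and *Hadhb* 42.8% of their 3′ words with annotated copies, so their levels are uncertain.

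The medium-chain acyl-CoA synthetases lie side by side on chromosome 7. *Acsm2* was at 1932 CPM in PT-like and 215 CPM in injured PT-like cells of Cre- (log2 ratio -3.17, -3.24 to -3.10) and at 1695 and 228 CPM in PHDTiEC (-2.89, -2.96 to -2.82), which is 9.0-fold and 7.42-fold lower. *Acsm1* was at 62.7 and 15.1 CPM in Cre- (-2.06, -2.34 to -1.78) and at 54.2 and 11 CPM in PHDTiEC (-2.30, -2.64 to -1.98). *Acsm3* was close to undetected, with 16 UMIs in PT-like and 1 in injured PT-like cells of Cre- (log2 ratio -3.79, -9.18 to -1.11) and 4 and 2 UMIs in PHDTiEC. The difference in *Acsm2* was also one of how many cells held it. With every cell thinned to 2000 UMIs, 90.0% and 87.9% of PT-like cells held an *Acsm2* UMI, compared with 27.6% and 22.8% of injured PT-like, 0.713% and 1.41% of TAL-like and 4.41% and 2.33% of neutrophil-like cells. Thinning left out 7 PT-like cells of Cre- and, of neutrophil-like cells, 425 of 629 and 448 of 663. Before thinning, 99% and 98.8% of PT-like and 75.1% and 59.2% of injured PT-like cells held one. For *Acadl* the thinned shares ran the other way, 24.5% and 29.4% in PT-like against 30.6% and 36.4% in injured PT-like cells.

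The last group held the steepest differences on the fewest counts. *Cyp4a10*, a fatty acid omega-hydroxylase and well-known PPARalpha target, had 173 UMIs in PT-like and 7 in injured PT-like cells of Cre- (17.1 and 0.799 CPM, log2 ratio -4.42, -5.76 to -3.35) and 276 and 3 UMIs in PHDTiEC (-5.76, -8.05 to -4.20). *Cyp4a14*, its neighbor on chromosome 4, had 36 and 0 UMIs in Cre-, at least 10.4-fold lower against a floor of 3 counts, and 159 and 3 UMIs in PHDTiEC (-4.97, -7.26 to -3.39). *Ces1f*, a carboxylesterase that hydrolyzes lipid esters, had 294 and 9 UMIs in Cre- (-4.82, -5.97 to -3.88) and 96 and 2 in PHDTiEC (-4.83, -7.89 to -2.93). *Cyp4b1* was at 101 and 32.3 CPM in Cre- (-1.65, -1.85 to -1.46) and at 64.6 and 29.5 CPM in PHDTiEC (-1.13, -1.35 to -0.92). *Cyp4a10* shares 16.4% of its 3′ words with *Cyp4a32* and *Cyp4a31* and is uncertain to that extent. For 5 genes the Cre- interval of this ratio lay wholly apart from the PHDTiEC interval: *Acadl*, *Hadh*, *Eci1*, *Acsm2* and *Cyp4b1*. Whether these differences between mice exceed the spread between mice was not tested.

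Cells were next divided by *Havcr1* inside each class. In PT-like cells the 32 genes took 0.573% of UMIs in the 179 Cre- cells without a *Havcr1* UMI and 0.447% in the 240 with one. In PHDTiEC they took 0.510% in 303 cells without and 0.409% in 283 with one. Median depth differed across this split, 14039 and 24073.5 UMIs in Cre- and 16212 and 18642 UMIs in PHDTiEC, and a deeper cell is more likely to show a *Havcr1* UMI. In injured PT-like cells the shares lay closer together, 0.230% in 40 cells and 0.225% in 257 cells of Cre-, and 0.25% in 42 and 0.213% in 230 cells of PHDTiEC. Within PT-like cells, 26 of 32 genes in Cre- and 28 of 31 in PHDTiEC were lower in *Havcr1*-positive cells, with medians of -0.26 and -0.24. *Ces1f* had log2 ratios of -1.96 and -1.24, *Cyp4a10* of -0.83 and -1.33, *Cyp4b1* of -1.03 and -0.75, *Acaa2* of -0.79 and -0.88 and *Acsm2* of -0.46 and -0.47. Ratios of *Acadl* were 0.21 and -0.04. Over both classes together the medians were -0.40 and -0.43, so *Havcr1* status divided the genes less sharply than the clusters did.

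**Figure D3:**
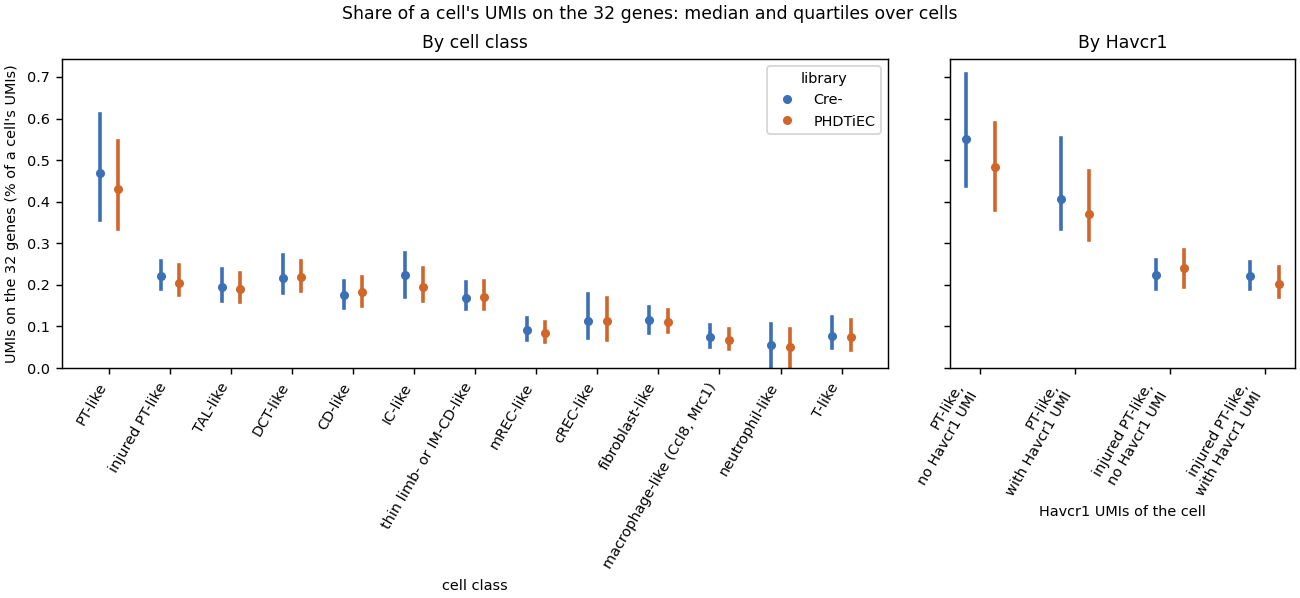
Percent of each cell's UMIs on the 32 genes (median as point, quartiles as bar) in both libraries, by cell class (left) and for PT-like and injured PT-like cells split by Havcr1 (right). The medians were 0.469% and 0.430% in PT-like and 0.221% and 0.205% in injured PT-like cells, and the quartile bars of these classes do not overlap.

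Proximal tubule cells vary along the nephron, so PT-like cells were subdivided into 5 subclusters. The 32 genes took 0.574% and 0.550% of UMIs in an S1-like subcluster led by *Slc34a3*, *Slc6a19* and *Gatm*, and 0.628% and 0.630% in an S2- or S3-like subcluster led by *Kap*, *Slc22a6* and *Slc5a8*. They took 0.377% and 0.375% in a subcluster led by *Cxcl10*, *Sox9* and *C3*, 0.353% and 0.361% in 1 led by *Ccn1*, *Gdf15* and *Atf3*, and 0.379% and 0.385% in 1 led by macrophage genes (*Lyz2*, *C1qa*). The leading genes of the last also include *Umod*, a thick ascending limb marker. The 3 subclusters not led by proximal tubule segment markers thus held lower shares than the 2 led by them, in each library. The subcluster led by *Ccn1* comprised 14 cells in Cre- and 93 in PHDTiEC.

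Related genes outside the 32 gave the wider pathway, with counts of genes lower by more than 2-fold in injured PT-like cells in Cre- and PHDTiEC. Other mitochondrial fatty acid oxidation genes had medians of -0.54 and -0.46, with 6 of 23 lower in each library and 1 higher. The carnitine transporter *Slc22a5* was at 22.1 and 3.88 CPM in Cre- and 20.7 and 4.65 CPM in PHDTiEC, while the acyl-CoA synthetase *Acsl5* was at 20.6 and 46.4 CPM and at 18.8 and 50.9 CPM. Other peroxisomal enzymes and transporters had medians of -0.65 and -0.77, with 13 of 37 and 14 of 38 lower, among them the hydroxyacid oxidase *Hao2* (187 and 44.0 CPM, 186 and 44.7 CPM). The peroxins, which build the organelle, had medians of -0.08 and -0.12 and 0 of 15 lower by more than 2-fold in either library.
Regulators and PPAR targets had medians of -0.63 and -0.39, with 8 and 6 of 18 lower. *Hnf4a*, a transcription factor of proximal tubule identity, was at 159 and 56.4 CPM and at 152 and 53.2 CPM, whereas the lipid droplet coat gene *Plin2* was at 94.2 and 154 CPM and at 93.7 and 177 CPM. Uptake and binding genes had medians of -0.30 and -0.01 (4 and 3 of 11 lower), ketone body genes of -0.75 and -0.93 (1 and 2 of 6), and other omega-oxidation and esterase genes of -1.10 and -2.56 (4 of 6 and 5 of 7). *Oxct1*, which lets cells burn ketone bodies, was at 581 and 114 CPM in Cre- and at 481 and 138 CPM in PHDTiEC.
The next 3 lists were not left out of the clustering that made the classes. Proximal tubule transport genes, some of which named the clusters, had medians of -2.34 and -2.26 (28 of 34 and 28 of 33 lower). Nuclear genes of the respiratory chain had medians of -0.62 and -0.61 with 0 and 1 of 66 lower by more than 2-fold. Glycolysis genes had medians of -0.04 and 0.13, with 3 and 4 of 15 higher, and hexokinase *Hk2* was at 10.9 and 112 CPM in Cre- and at 10.0 and 152 CPM in PHDTiEC. The medians of the 32 genes were thus near those of the respiratory chain and of the other fatty acid oxidation genes.

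**Figure D4:**
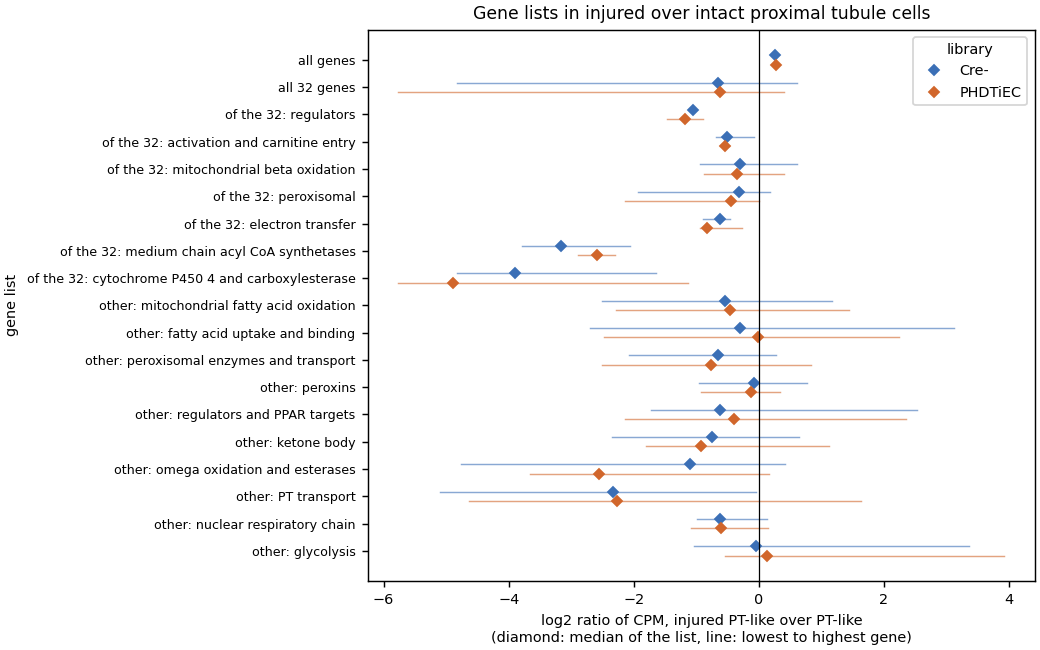
Log2 ratio of CPM in injured PT-like over PT-like cells (horizontal) by gene list (vertical) in both libraries; the diamond is the median and the line runs from the lowest to the highest gene. The 32 genes have medians of -0.65 and -0.62, proximal tubule transport genes of -2.34 and -2.26 and other omega-oxidation and esterase genes of -1.10 and -2.56, while peroxins and glycolysis genes lie near 0.

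Between the genotypes, PT-like cells of the library labelled PHDTiEC had, by the median, levels of the 32 genes close to those of Cre-, with a few larger differences in both directions. The median log2 ratio of PHDTiEC over Cre- was -0.01, and that of all genes 0.03. Ratios of 27 of the 32 genes were within 0.5 of 0, and the interval lay below 0 for 11, compared with 10.4% of all genes, above 0 for 9, compared with 15%, and held 0 for 12. Lower by more than 2-fold was 1 of 31 genes, compared with 0.707% of all genes, and higher was 1 of 31, compared with 0.743%.
The lower gene was *Ces1f*, with 294 UMIs in 100 cells of Cre- and 96 UMIs in 47 cells of PHDTiEC (29.1 and 7.33 CPM, log2 ratio -1.99, -2.34 to -1.65). The higher gene was *Cyp4a14*, with 36 UMIs in 11 cells and 159 UMIs in 40 cells (3.56 and 12.1 CPM, 1.77, 1.24 to 2.33), of which a single cell gave 27.8% and 16.4%. *Ppara* was at 14.2 and 20.3 CPM (0.51, 0.21 to 0.81), and *Cyp4a10* at 17.1 and 21.1 CPM (0.30, 0.02 to 0.58). Below 0 were *Cyp4b1* (101 and 64.6 CPM, -0.65, -0.78 to -0.52), *Ehhadh* (-0.45, -0.65 to -0.24), *Cpt2* (-0.47, -0.68 to -0.26) and *Decr1* (-0.33, -0.46 to -0.20), and above 0 was *Slc25a20* (0.41, 0.16 to 0.67). *Acsm2* had a ratio of -0.19 (-0.22 to -0.16).

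The makeup of PT-like cells moved with several of these values. S2- or S3-like cells formed 32.7% of PT-like cells in Cre- and 19.1% in PHDTiEC. *Kap*, which leads that subcluster, was at 2054 and 103 CPM in PT-like cells, of which 24.1% and 6.31% held a UMI. Whether *Kap* also differed within the subcluster was not tested. Within the S2- or S3-like subcluster *Cyp4b1* was at 254 and 242 CPM (log2 ratio -0.07) and *Ces1f* at 96.5 and 45.5 CPM (-1.09, -1.47 to -0.71). There *Cyp4a14* was at 11.4 and 77.1 CPM (2.76, 2.16 to 3.41), *Cyp4a10* at 51.9 and 105 CPM (1.01, 0.68 to 1.36) and *Ppara* at 13.5 and 30.5 CPM (1.18, 0.52 to 1.86). Thus in the S2- or S3-like subcluster the *Cyp4a* genes and *Ppara* differed more, and *Cyp4b1* and *Ces1f* less, than over PT-like cells as a whole. In the S1-like subcluster *Cyp4a10* was at 4.66 and 12.3 CPM (1.40, 0.45 to 2.46), *Cyp4b1* at 63.7 and 35.1 CPM (-0.86) and *Ces1f* at 10.5 and 2.86 CPM (-1.88). *Cyp4b1* had ratios of -0.87 and -0.82 in the subclusters led by *Cxcl10* and by macrophage genes. In the subcluster led by *Ccn1* its ratio was 0.86 (-0.17 to 2.10). *Ces1f* was lower in each of these, on 12 and 4, 23 and 1, and 3 and 2 UMIs in that order. *Cyp4a14* had 8 and 1, 1 and 7, and 0 and 15 UMIs in the same order. Counts past 2-fold cover only genes with at least 50 UMIs, which leaves out *Ces1f* in S1-like cells (27 and 10 UMIs). In the S1-like subcluster 0 of these genes were lower and 1 higher, compared with 0.509% and 0.633% of all genes. In the S2- or S3-like subcluster 1 was lower and 3 higher, compared with 0.749% and 0.847%.

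Of the genes with at least 50 UMIs in injured PT-like cells, none differed by more than 2-fold between the libraries. The median log2 ratio was -0.10, compared with 0.06 for all genes, and 0 of 28 genes passed 2-fold either way, compared with 0.498% of all genes lower and 1.23% higher. The largest difference among genes whose interval left out 0 was that of *Acaa1b*, at 17 and 11.5 CPM (-0.56, -0.96 to -0.18). *Acsm1* had a ratio of -0.46 and *Ppargc1a* of 0.30. Of 30 genes with at least 10 UMIs, the interval lay below 0 for 9, compared with 8.64% of all genes, above 0 for 3, compared with 15%, and held 0 for 18. On few counts, *Ces1f* had 9 and 2 UMIs (-1.99, -5.24 to 0.28) and *Cyp4a10* 7 and 3 UMIs (-1.04, -3.63 to 1.09).

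**Figure D5:**
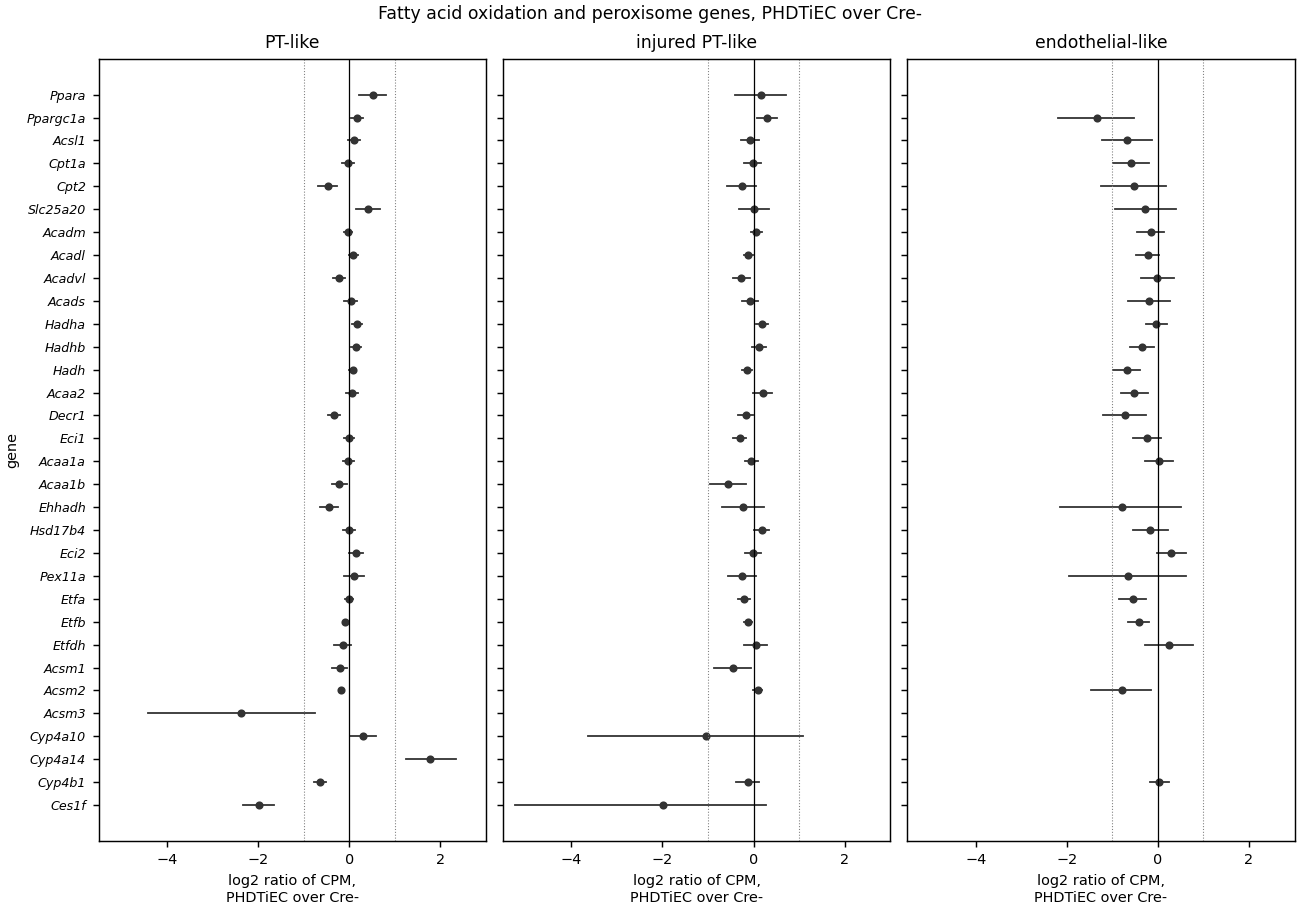
Log2 ratio of CPM in PHDTiEC over Cre- (horizontal) with exact 95% counting intervals for each gene (vertical) in PT-like, injured PT-like and EC-like cells, 1 library per genotype; genes under 10 UMIs in a class are not drawn. In PT-like cells most points lie near 0 with Ces1f at -1.99 and Cyp4a14 at 1.77, and in EC-like cells 21 of 25 genes lie below 0.

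EC-like cells, the cells in which Cre is directed, had lower levels of most of these genes in the library labelled PHDTiEC. The median log2 ratio was -0.34, compared with -0.01 for all genes, and 21 of 25 genes lay below 0, beside 6553 of 12769 genes in all. The interval lay below 0 for 10 of the 25, compared with 10.4% of all genes, above 0 for 0, compared with 9.62%, and held 0 for 15. Lower by more than 2-fold was 1 of 23 genes, compared with 1.91% of all genes, and higher was 0 of 23, compared with 1.3%. *Hadh* was at 72.5 CPM in Cre- and 45.2 CPM in PHDTiEC (log2 ratio -0.68), *Cpt1a* at 41.5 and 27.5 CPM (-0.60), and *Acsl1* at 22.9 and 14.3 CPM (-0.68). *Decr1* (30.6 and 18.5 CPM), *Etfa* (67.9 and 46.2 CPM), *Acaa2* (69.0 and 48.1 CPM), *Etfb* (117 and 87.2 CPM) and *Hadhb* (81.6 and 64.4 CPM) lay the same way. *Eci2* lay the other way at 46.4 and 56.8 CPM (0.29, -0.03 to 0.61), and *Cyp4b1* was nearly level at 128 and 131 CPM (0.03, -0.16 to 0.23).
The gene past 2-fold was *Ppargc1a*, with 38 and 20 UMIs (13.4 and 5.28 CPM, -1.34, -2.20 to -0.52). In the cREC-like cluster of Cre- its 27 UMIs came from 8 cells, 1 of which gave 40.7%, and with likely doublets removed its ratio in EC-like cells was 0.35. *Acsm2*, near absent outside the proximal tubule, was at 16.5 and 9.51 CPM in EC-like cells, a level that free RNA can give. TAL-like markers moved with these differences, at 0.0689% of EC-like UMIs in Cre- and 0.0113% in PHDTiEC, as did injured proximal tubule markers at 0.634% and 0.384% and neutrophil markers at 0.0233% and 0.0047%. Proximal tubule markers took 0.00753% and 0.00597%. Their part in the lower values was not tested. The median was -0.18 with likely doublets removed and -0.12 when each cell weighed the same.

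In 3 of 4 other nephron segments the medians of the 32 genes were within 0.1 of that of all genes, and in intercalated-like cells the median was lower. Medians of PHDTiEC over Cre- were -0.00 in TAL-like, 0.02 in DCT-like, 0.04 in collecting duct-like and -0.26 in intercalated-like cells, beside 0.09, 0.11, 0.04 and 0.06 for all genes. Of the 26, 25, 24 and 23 genes with at least 50 UMIs, 0 passed 2-fold either way in any of these classes, compared with 1.55%, 1.83%, 1.66% and 1.49% of all genes. In intercalated-like cells the interval lay below 0 for 7 of 26 genes, compared with 5.04% of all genes, and above 0 for 1, compared with 9.21%. The lower genes included *Acaa2* (123 and 68.9 CPM, log2 ratio -0.83, -1.18 to -0.50), *Acadvl* (88.5 and 63.2 CPM, -0.49) and *Eci2* (82.2 and 59 CPM, -0.48), and the higher one was *Slc25a20* (20.1 and 33.7 CPM, 0.75, 0.15 to 1.35). In intercalated-like cells that also carried collecting duct markers the median was -0.05, and the interval lay below 0 for 9 of 28 genes, compared with 12.4% of all genes, and above 0 for 1, compared with 19.4%. There *Ehhadh* was at 9.72 and 5.92 CPM (-0.71, -1.06 to -0.37) and *Acadvl* at 66.9 and 51.3 CPM (-0.38). That class was deep, with medians of 47841.5 and 52330 UMIs per cell, against 12502.5 and 12005.5 in intercalated-like cells. Whether doublets are among its barcodes was not tested.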

How the data were processed

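Single-cell RNA-seq (10x 3′ v3.1) covered dissociated kidney cells of 1 Cre- and 1 PHDTiEC mouse, grouped by the genotype label. The authors deposited whole-number UMI counts per gene and barcode made with Cell Ranger 4, per the file headers, on mm10. The deposited barcode and feature lists carry no measurement. Barcodes numbered 1520516 and 1652483. Those with 500 to 100000 UMIs, at least 200 genes and at most 50% mitochondrial UMIs were kept (8548 and 9309), and a floor of 0.8 on log10 genes per log10 UMIs, which the study also states, was run as an alternative. Of 17857 kept barcodes, 28 occur in both libraries and were kept. No doublets were removed.

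Counts were normalized to 10000 per cell and clustered in Seurat 5.3.0 (R 4.3.3) on 2000 variable genes with 20 principal components at resolution 0.8. The 32 genes and the related lists were left out, but not the lists of transport, respiratory chain and glycolysis genes. PT-like cells were reclustered at 0.4. Clusters were named from fixed markers with the clusters in view. Python 3.11.15 with numpy 2.4.6, scipy 1.17.1 and pandas 2.3.3 summed UMIs per class and library, as CPM. Medians and counts of signs use genes with at least 10 UMIs over both sides, and 2-fold calls use at least 50. Intervals are exact (95%, Clopper-Pearson) from how a gene's UMIs divide. A floor of 3 counts stands for 0. With 1 library per genotype no edgeR or other test was run (edgeR 4.0.16 gave TMM factors only). All 32 genes are described, and of the related lists those with the lowest and highest ratios averaged over the libraries, with TAL markers in EC-like cells and *Kap* added after values were seen. The genes and lists were chosen with earlier results of these data known. The calculation of log2 ratios and intervals was tested on simulated class sums, which had counting error but no spread between cells or mice.

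Alternatives covered stricter filters, no mitochondrial transcripts, equal weight per cell, subtraction of the profile of barcodes under 100 UMIs, doublet removal (scanpy 1.11.5, scrublet), other resolutions and variable genes, UMI minimums, TMM, the *Havcr1* split and subclusters. Promoter windows and gene positions came from RefSeq (GRCm38.p6) and GENCODE. Counting is of 3′ tags, so levels are not compared between genes, and free RNA gives UMIs in cells that lack a gene.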

Additional observations from a re-analysis of the deposited data

How the results depend on the processing

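No paired analysis was possible because each genotype has 1 library. Of gene-level values under alternatives, 2067 stayed inside their counting interval and 174 moved further. Changes of sign were counted only for genes past 2-fold with at least 50 UMIs. There was 1: *Ppargc1a* in EC-like cells, 0.35 with doublets removed against -1.34. Values near 0 also crossed it without being counted, such as injured over intact *Acads* in Cre-, 0.08 against -0.07 by *Havcr1* over both classes. The EC-like count of genes lower by more than 2-fold was 0 rather than 1 with equal weight per cell, with doublets removed, with the cluster of endothelial and mural genes included, and in mREC-like cells alone. The final 2 of these were chosen after seeing the data, as were settings that add the low-UMI PT-like cluster, leave out a PT-like subcluster, or fix subcluster shares. The injured over intact median moved to -0.40 (Cre-, 4 genes lower) and -0.43 (PHDTiEC, 5 lower) in cells with over without *Havcr1*. Under the other settings these medians stayed between -0.78 and -0.60 in both libraries, with 8 to 11 genes lower. The PHDTiEC over Cre- medians stayed between -0.07 and 0.08 in PT-like, -0.15 and -0.07 in injured PT-like, and -0.41 and -0.12 in EC-like cells. In PT-like cells 0 genes were lower in S1-like and 3 were higher in S2- or S3-like cells. The percent of UMIs on the 32 genes in PT-like cells moved with the denominator and cell choice. In Cre- it was 0.4718 with a 20% mitochondrial limit, 0.491 with the 0.8 floor, 0.5557 without mitochondrial transcripts, 0.5071 with equal weight per cell, 0.5262 after background subtraction, 0.4952 without doublets, 0.3659 at resolution 0.4, 0.4811 at 1.2 and 0.5624 when the genes entered the clustering. In PHDTiEC it was 0.4495, 0.462 and 0.5059 for the first 3, 0.4633 after subtraction, 0.4638 without doublets, 0.3669 at resolution 0.4 and 0.5245 with the genes in the clustering. In injured PT-like cells it was 0.2355 and 0.2249 without mitochondrial transcripts, 0.2572 and 0.2579 with the genes in the clustering, 0.2215 in Cre- at resolution 1.2 and 0.2073 in PHDTiEC without doublets. The cause was not tested apart from the denominator. The background subtracted was estimated from neutrophil genes, which tubular cells should lack. It was 12.7% of PT-like UMIs in Cre- and 2.66% in PHDTiEC, and 2.63% and 4.67% of injured PT-like UMIs. At resolution 0.4 injured and intact cells shared a cluster, so their ratio has no value there. Scrublet's own threshold marked 0 cells, so the top 5% of scores (427 and 465 cells) were removed instead. Counts under 10 UMIs limit *Acsm3*, *Cyp4a10*, *Cyp4a14* and *Ces1f* in injured PT-like cells.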

Other observations

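Among 11 fatty acid uptake and binding genes in EC-like cells, 6 lay above 0 and 5 below, with a median log2 ratio of PHDTiEC over Cre- of 0.08. The genes named here were chosen after their values were seen. *Fabp4*, a cytosolic fatty acid carrier of capillary endothelium, was at 1289 CPM in Cre- and 2140 CPM in PHDTiEC (log2 ratio 0.73), *Fabp5*, its close relative, at 121 and 246 CPM (1.02), and *Cd36*, a fatty acid translocase, at 19.4 and 38.3 CPM (0.98). The other way lay *Fabp3*, the carrier of heart muscle, at 28.5 and 3.43 CPM (-3.05), and the acyl-CoA binding gene *Dbi* at 345 and 245 CPM (-0.49). *Fabp3* was also counted in proximal tubule cells, with a mean log2 ratio of -2.55 for injured over intact. TAL-like markers took 0.0689% and 0.0113% of the EC-like UMIs. The part of tubular RNA in the *Fabp3* value was not tested. Of the 16 glycolysis genes there, 12 were higher by more than 2-fold, compared with 1.3% of all genes, with a median log2 ratio of 1.31, while the nuclear respiratory chain genes had a median of -0.26 with 64 of 66 below 0, beside 6553 of 12769 genes in all. *Fabp5* was also higher in injured PT-like cells, at 14.0 and 60.7 CPM (2.11). *Fabp4* had 9 and 128 UMIs in PT-like cells, where EC-like RNA was not told apart. *Pdk4*, a kinase that holds pyruvate back from oxidation and leads the PT-like subcluster found mostly in PHDTiEC, was at 40.2 and 74.3 CPM in PT-like cells. With 1 mouse per genotype none of these differences was tested.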
